A study of Mus musculus with 8 samples.

Results

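Messenger RNAs encoding the proteins of the spliceosomal small nuclear ribonucleoproteins (snRNPs) were followed through polysome gradients of mouse oocytes. The members were all genes of the expression table whose symbols carry the family names of these proteins (Snrp followed by a letter from a to g or a digit, Sf3a, Sf3b, Prpf, U2af and Lsm, each with its number), which gave 45 of 25574 genes. They were placed by the particle in which the protein works: 7 Sm proteins, 10 Lsm proteins, 5 U1 proteins, 13 U2 proteins with their partners, 5 proteins of the U4/U6.U5 tri-snRNP and 5 further Prpf proteins that belong to none of these. Snrnp70 of the U1 particle and Snrnp200 and Eftud2 of the U5 particle do not carry these family names and are counted with the other splicing genes. Lsm8 and Sf3b6 were not analysed here.

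The oocytes came from 8 weeks old CD1 mice primed with 5 IU of pregnant mare serum gonadotropin 46 h before collection, and they were held at the germinal vesicle stage with 100 µM IBMX, a phosphodiesterase inhibitor. After removal of the surrounding cells they were cultured without IBMX, and those that had undergone nuclear envelope breakdown (NEBD) were selected during the culture. After 180 min without IBMX they received 0.1 mg/mL of cycloheximide, which holds ribosomes on mRNA, for 10 further min. Lysates of 200 oocytes were run on sucrose gradients (scarce sample polysome profiling, SSP-profiling). The top fraction of each profile was left out. The paper proposes that stored mRNA in it would mainly be short transcripts, and considers such a loss unlikely. The fractions with ribosomal subunits and single ribosomes were pooled as the non-polysomal (NP) part, and the heavier ones as the polysomal (P) part. An mRNA on a single ribosome is therefore in NP. The pools gave 2 datasets of 4 libraries each. Every library thus holds oocytes of the same strain, stage and treatment, and there is no untreated group. RNA was depleted of rRNA, primed with a mixture of oligo(dT) and random primers, and amplified as cDNA before sequencing. Levels are fragments per kilobase of gene at a fixed sequencing depth (FPKM), a share of the reads of a library corrected for gene length, so they say nothing on the total RNA of a fraction. In these bulk libraries, fewer oocytes holding an mRNA in a fraction and less of it per oocyte cannot be told apart.

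An snRNP is a short nuclear RNA with its proteins, and the spliceosome is built from several of them on each intron. A ring of Sm proteins closes around the U1, U2, U4 and U5 RNAs, and a related ring of Lsm proteins holds the U6 RNA. U1 recognises the start of an intron, U2 with the SF3A and SF3B proteins its branch point, and the tri-snRNP brings in the catalytic RNAs. A fully grown oocyte does not transcribe and lives on stored maternal mRNA. These mRNAs are read here as outside or inside the polysomal fractions, in a cell whose nucleus has opened.

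All 45 members passed the filter (mean FPKM over 0.1 for NP, P or both), by which 14292 genes were tested. Of the members, 33 had a value above 0 in every library and 23 had an FPKM above 1 in every library (33.8% of all genes tested did so). The values at 0 came mainly from NP replicate 2, with 5 members, and P replicate 4, with 5 members. By the scale recovered from the FPKM steps, the NP libraries held 1299377 to 7594637 reads, NP replicate 2 being the shallowest, and the P libraries 2677946 to 4699328. The defining markers of the oocyte were present, with all 10 genes of a marker list above a mean FPKM of 1. Of 10 granulosa and cumulus cell markers, Foxl2, Has2 and Ptx3 were at 0 in every library. Cyp19a1, however, had 6.07 to 75.2 FPKM in NP and 0.190 to 62.6 in P, and Cyp11a1 0 to 46.4 in NP and 0 to 17.9 in P. Kitl reached 10.3 FPKM in P replicate 3, and the other markers stayed below an FPKM of 1. The summed level of the list was 6.25 to 124.6 FPKM in NP and 10.5 to 62.6 in P. The 4 blood cell markers in the table were at 0 in all 8 libraries.

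The 3′ ends of 4 of these mRNAs are given because elements there govern the stability and the poly(A) tail of maternal mRNA. They are the last 30 bases of 1 transcript model per gene (GENCODE M21, GRCm38), with the poly(A) signal AATAAA or ATTAAA and the cytoplasmic polyadenylation element TTTTAT in capitals. Snrpc (chr17:27851934-27851963, plus strand) and Prpf38a (chr4:108564870-108564899, minus strand) had the lowest and the highest log2 fold change of all members. Prpf8 (chr11:75509418-75509447, plus strand) and Lsm3 (chr6:91522596-91522625, plus strand) are the members of the tri-snRNP and the Lsm group with the highest level. All 4 stretches lie in the annotated 3′ UTR.
Snrpc: atgtgaaAATAAAgtcatcagctcttttag
Prpf38a: ttgtaATTAAActtgccacagttctcattt
Prpf8: aacaaaatgtAATAAATTTTATaaatagtg
Lsm3: aaATTAAAtttgatgtttccttTTTTATta
Prpf8 and Lsm3 thus carried both motifs within these bases, and Snrpc and Prpf38a the poly(A) signal alone. The Prpf38a gene runs on to position 108563172, past the end of this model, so its stretch is not the farthest annotated 3′ end.

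No snRNP protein mRNA was called by limma between the datasets. With limma on log2(FPKM + 1), 0 of 45 members were called at an adjusted p below 0.1, where 3 of 14292 genes (0.021%) were called in all. With so few genes called, the count of 0 does not show that the members had equal levels in NP and P. At an unadjusted p below 0.05 there were 6 members (13.3%), against 9.95% of all genes tested. Of these, Snrpc, Sf3a2, Snrpa, Prpf3 and Snrpd2 had the higher level in NP (9.47% of all genes tested), and Prpf38a in P (0.476%). With limma-voom on recovered reads 1 member, Snrpc, was called with NP higher, where 0.995% of 12661 genes were called in that direction and 0.0079% in the other. For Snrpc, Prpf3 and Lsm6 the lowest NP library was above the highest P library (6.67% of members), where 5.92% of all genes tested did so. The opposite order was found in 0 of 45 members and in 0.357% of all genes tested. These members are spread over the U1, U2, tri-snRNP and Sm/Lsm groups, with Prpf38a among the further Prpf proteins.

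The median log2 fold change of P over NP was −0.49 over the 45 members, with 30 below 0 (66.7%), and −0.39 over all genes tested, with 71.4% below 0. A direction given against 0 depends on the scaling: with each library centred on its median, the all-gene median moved to 0.57 and that of the members to 0.47. Set against the all-gene median, 25 members lay below and 20 above it, but the tally turned to 19 below and 26 above with quantile normalization and to 17 below and 28 above with voom (all-gene median −0.93, members −0.61). The groups are described against that median, without a direction for the members as a whole.

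**Figure D1:**
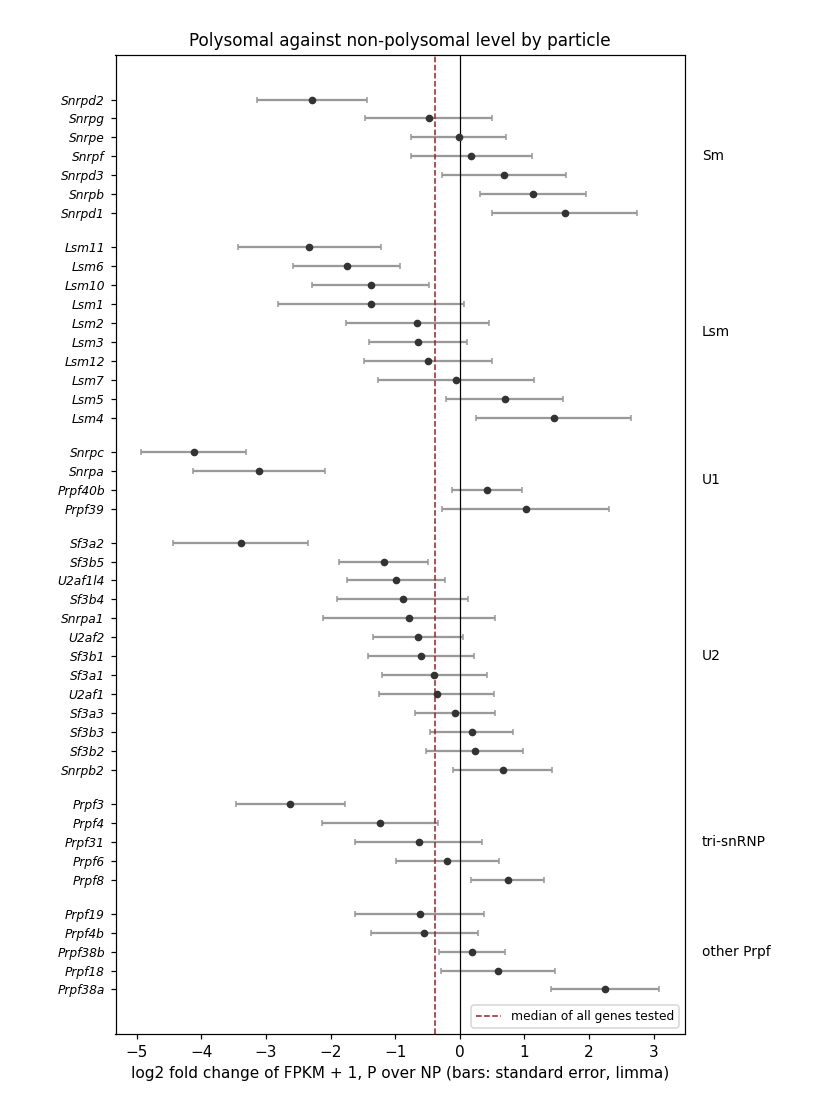
Log2 fold change of FPKM + 1, P over NP, for 44 of the 45 members by particle; points are limma estimates from 4 NP and 4 P libraries, bars their standard errors, and the dashed line the median of all genes tested (−0.39). Snrpc (−4.11) lies farthest to the left and Prpf38a (2.25) farthest to the right, and every group has estimates on both sides of the dashed line.

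The comparison of the Sm/Lsm core with the particle proteins gave a difference that varied with the library. The 17 core members had a median log2 fold change of −0.48, and the 23 U1, U2 and tri-snRNP members one of −0.60, a difference of 0.12. Computed for each P library against the NP mean, the difference was −0.12, 1.17, 0.48 and 1.39 in P replicates 1 to 4 (SD 0.689). Without NP replicate 3 it was −0.05, and without P replicate 4 it was 0.57. Within the core the Sm median was 0.18 and the Lsm median −0.65, but the members ran over almost the same range, from −2.28 to 1.62 for Sm and from −2.33 to 1.45 for Lsm. With the Sm proteins alone as the core, the difference was 0.78, and with the Lsm proteins outside the U6 ring (Lsm1, Lsm10, Lsm11 and Lsm12) left out it was 0.58.

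The position in each library can be read without any scaling between libraries, as a percentile among the genes tested. In the NP libraries the median core member was at the 52.3 to 70.6 percentile and the median U1, U2 or tri-snRNP member at the 73.9 to 83.1 percentile. In all 4 NP libraries the 23 particle proteins as one set thus had the higher median rank. The U2 and tri-snRNP medians also lay above the core median in each NP library, but the U1 median did not. It was at the 32.4, 31.5, 66.4 and 66.5 percentile in NP replicates 1 to 4, where the core was at 70.6, 63.7, 52.3 and 67.4. Near-identical copies in the annotation were more frequent among the core members, and their part in the order of the core and the particle proteins was not tested. In the P libraries the ranges were 61.1 to 81.4 for the core and 65.5 to 75.5 for the 23 particle proteins. The core lay above the particle proteins in P replicates 2 and 4 only.

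**Figure D2:**
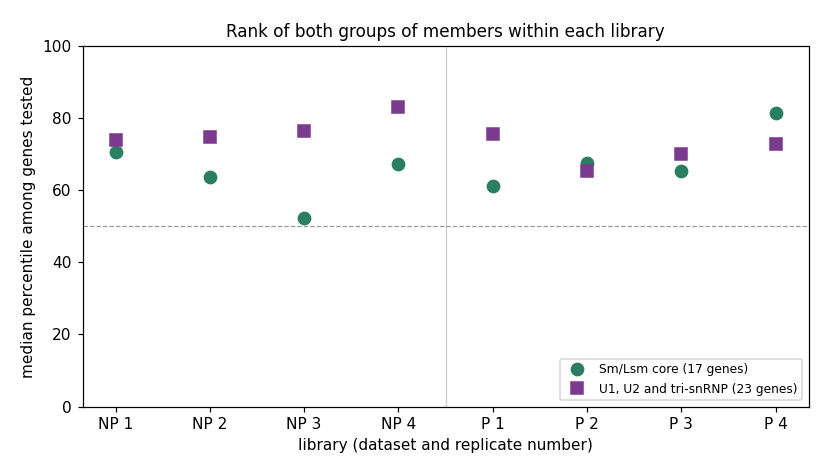
Median percentile of the 17 Sm/Lsm core members (circles) and the 23 U1, U2 and tri-snRNP members (squares) among the 14292 genes tested, in each of the 8 libraries. The squares lie above the circles in the 4 NP libraries (73.9 to 83.1 against 52.3 to 70.6), and both marks share one range in the P libraries.

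The Sm proteins form the ring on which an snRNP is assembled in the cytoplasm. Of the 7 members, 5 lay above the all-gene median and 2 below it, and in quantile-normalised values 6 lay above it. Their mean levels in NP spanned 2.83 (Snrpf) to 1289 FPKM (Snrpd2), although the ring holds 1 copy of each protein, and in P 4.71 (Snrpf) to 429.8 FPKM (Snrpd2). Most exon bases of Snrpf, 85.4%, lie in exons of another gene, so its level is uncertain.

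Snrpd2, encoding SmD2, was the member with the highest level of all 45. It had 966, 856, 717 and 2616 FPKM in NP replicates 1 to 4 and 269, 199, 1209.5 and 41.4 in P. P replicate 3 lay inside the NP range and the other P libraries below it. The log2 fold change was −2.28 ± 0.85 (SE), with an adjusted p of 0.420 in limma. A copy of the Snrpd2 coding sequence with at least 95% identity is in the table under another name, so reads of the gene and the copy may have been divided.

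Snrpd1, encoding SmD1, had the highest log2 fold change of the core. Its FPKM was 0.749, 10.1, 3.12 and 20.9 in NP and 152, 8.20, 3.49 and 24.1 in P. P replicate 1 held 80.9% of the P sum, replicates 2 and 3 lay inside the NP range, and replicate 4 just above it. Its log2 fold change was 1.62 ± 1.12 (SE), with an adjusted p of 0.632 in limma, and 0.65 without P replicate 1. Snrpb, which encodes SmB and its longer form, had 20.3, 1.95, 3.41 and 16.1 FPKM in NP and 22.7, 21.9, 12.2 and 14.0 in P. P replicates 3 and 4 lay inside the NP range and replicates 1 and 2 just above it, and the log2 fold change was 1.13 ± 0.82 (SE). The other Sm members, Snrpd3, Snrpe, Snrpf and Snrpg, had log2 fold changes between −0.48 and 0.68.

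Lsm2 to Lsm7 are shared by the nuclear ring on U6 RNA and by a cytoplasmic ring, closed by Lsm1, that promotes removal of the mRNA cap. Lsm10 and Lsm11 replace Sm proteins in the U7 snRNP, which processes histone mRNA, and Lsm12 is a more distant relative. Of the 10 members, 7 lay below the all-gene median and 3 above it, and in quantile-normalised values, as with voom, 5 lay on each side.

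Lsm6 was the core member whose libraries did not overlap. It had 20.8, 10.8, 6.30 and 11.1 FPKM in NP and 0.992, 5.36, 1.93 and 3.76 in P. The lowest NP library, replicate 3, was 6.30 against 5.36 in the highest P library, replicate 2, so the gap was narrow. The ratio of means was 4.07 in favour of NP, the log2 fold change −1.75 ± 0.82 (SE), and the adjusted p 0.504 in limma. Lsm6 has 4 near-identical copies in the genome annotation, none of them in the table.

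Lsm3 had the highest level of the Lsm group, with 485, 286, 145 and 207 FPKM in NP and 532, 286, 109 and 40.7 in P. The NP values all lay inside the P range, with P replicate 4 lowest, and the log2 fold change was −0.65 ± 0.75 (SE). Lsm11 had 188, 45.8, 21.8 and 7.37 FPKM in NP and 5.34, 10.7, 0.105 and 31.2 in P, the lowest log2 fold change of the Lsm group at −2.33 ± 1.11 (SE), with an adjusted p of 0.509 in limma. Its partner Lsm10 had 56.6 to 353 FPKM in NP and 7.63 to 195 in P, with a log2 fold change of −1.38.

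Lsm1, the member of the cytoplasmic ring, had 151, 61.3, 3.90 and 11.9 FPKM in NP and 90.6, 1.45, 57.7 and 0 in P. The values of each dataset ran from under 4 to over 90 FPKM, and the log2 fold change was −1.38 ± 1.44 (SE). It was −2.41 with P replicate 1 left out and −0.24 with P replicate 4 left out. Lsm4 had 0.604, 0, 0.662 and 4.19 FPKM in NP and 2.46, 1.80, 0 and 78.8 in P, where P replicate 4 held 94.9% of the sum. The log2 fold change of Lsm4 was 1.45 ± 1.19 (SE), and 0.15 without P replicate 4.

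U1 opens the assembly on an intron. Its member Snrpc encodes U1-C, which steadies the pairing of U1 RNA with the start of the intron, and Snrpa encodes U1-A, which binds a stem-loop of U1 RNA. Snrpc and Snrpa were the members with the lowest log2 fold changes of the group, while Prpf39 and Prpf40b, relatives of yeast U1 proteins, had 1.02 and 0.42.

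Snrpc (chr17:27839974-27851968, plus strand) had 95.2, 96.8, 80.2 and 226 FPKM in NP and 10.5, 12.4, 9.08 and 0.240 in P. All NP values were thus above all P values, and P replicate 4 stood far below the other P libraries. NP libraries had a mean of 125 ± 68.1 FPKM (SD, n = 4) against 8.06 ± 5.38 (SD, n = 4) for P libraries, a ratio of 15.5. The log2 fold change was −4.11 ± 0.81 (SE), with an adjusted p of 0.315 in limma. It was called with limma-voom on recovered reads (log2 fold change −4.63, adjusted p 0.0606). Recovered reads were 782 to 10677 in NP and 247 to 307 in P replicates 1 to 3, with 4 in P replicate 4. The merged exons of Snrpc were 7.39 times as long as its transcript model, so reads outside this model could enter its value, and their part in the result was not tested.

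Snrpa had 57.3, 75.03, 50.4 and 229 FPKM in NP and 94.4, 1.96, 10.5 and 1.92 in P. P replicate 1 lay inside the NP range and the other P libraries below it. Its log2 fold change was −3.11 ± 1.02 (SE), with an adjusted p of 0.405 in limma, and without P replicate 1 its NP and P libraries did not overlap. Snrpb2 encodes U2B″, the relative of U1-A in the U2 particle, and had 0.987, 1.62, 2.55 and 0.691 FPKM in NP and 6.85, 0.983, 3.70 and 1.70 in P. Its level was below that of Snrpa in all 8 libraries, and its log2 fold change was 0.67 ± 0.77 (SE).

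Prpf39 had 0.641, 0.525, 6.34 and 0.1496 FPKM in NP and 99.99, 0.425, 1.48 and 0 in P, so P replicate 1 alone held 98.1% of the P sum. The log2 fold change was 1.02 ± 1.29 (SE), and without P replicate 1 it was −0.49. Prpf40b had 0.759, 0.155, 1.33 and 0 FPKM in NP and 2.62, 0.315, 0 and 2.19 in P. The datasets overlapped for Prpf40b, with a log2 fold change of 0.42 ± 0.54 (SE).

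**Figure D3:**
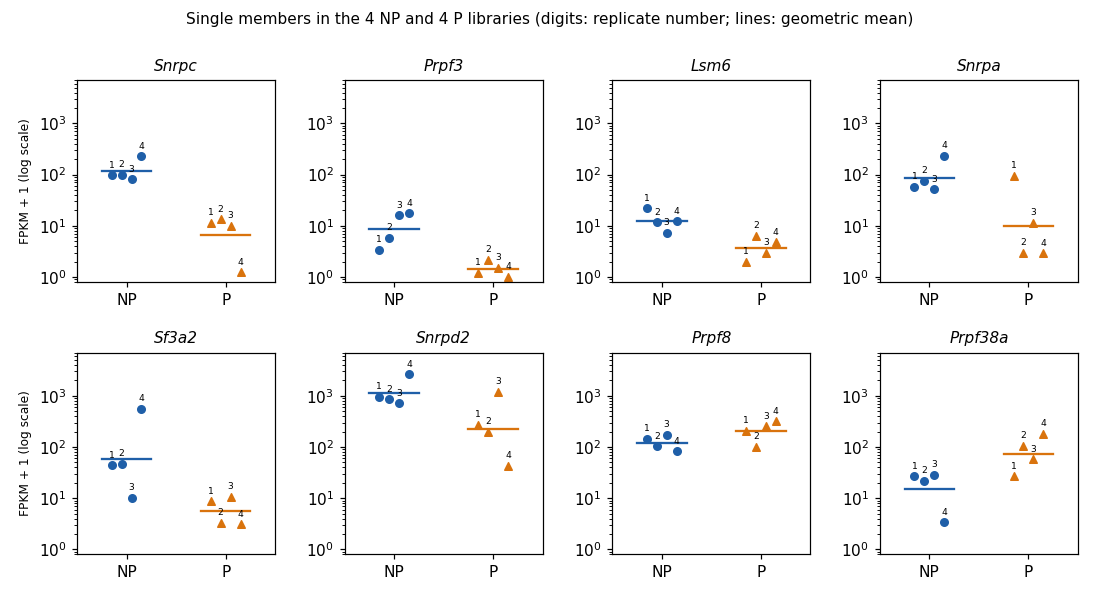
FPKM + 1 (log axis) of 8 members in the 4 NP (circles) and 4 P (triangles) libraries, with replicate numbers beside the points and lines at the geometric mean. Snrpc, Prpf3 and Lsm6 have every NP library above every P library, Snrpa has P replicate 1 and Snrpd2 P replicate 3 inside the NP range, and Prpf38a has 1 P library (25.6 FPKM) inside the NP range.

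The U2 group was the one group with no member at 0 in any library. Its median member stood at the 77.3 to 83.6 percentile in NP and the 77.5 to 81.6 percentile in P. Of its 13 members, 8 lay below the all-gene median and 5 above it, but with voom on recovered reads 4 lay below and 9 above. Sf3b1, whose protein clamps the paired branch point, and Sf3b3 of the same complex had means of 95.04 and 74.1 FPKM in NP and 63.8 and 93.9 in P.

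Sf3a2, a subunit of the SF3A complex that ties SF3B to the U2 core, had 43.0, 45.5, 9.15 and 563 FPKM in NP and 7.69, 2.35, 9.73 and 2.11 in P. NP replicate 4 held 85.2% of the NP sum, and NP replicate 3 lay below P replicate 3. The log2 fold change was −3.39 ± 1.05 (SE), with an adjusted p of 0.405 in limma. Part of its exon sequence, 16.1%, lies in exons of Plekhj1, and reads there could belong to either gene. The other SF3A subunits, Sf3a1 and Sf3a3, had log2 fold changes of −0.39 and −0.07, so the 3 subunits of the complex did not share one value.

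U2af2 and U2af1 encode the large and the small subunit of the factor that marks the end of an intron. U2af2 had 100.1, 88.3, 37.0 and 58.7 FPKM in NP and 58.3, 124, 23.3 and 17.96 in P. U2af1 had 7.72, 22.1, 26.0 and 28.0 FPKM in NP and 16.6, 7.05, 3.93 and 82.0 in P. Both pairs of ranges overlapped, with log2 fold changes of −0.65 ± 0.70 (SE) for U2af2 and −0.36 ± 0.89 (SE) for U2af1. Of the remaining U2 members, Sf3b5 and U2af1l4 had the lowest log2 fold changes, −1.18 and −0.99, with adjusted p of 0.560 and 0.645 in limma. Of the exon bases of U2af1l4, 66.1% lie in exons of another gene, so its value is uncertain.

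In the tri-snRNP, Prpf3 and Prpf4 sit on the paired U4 and U6 RNAs, Prpf31 holds the U4/U6 particle, Prpf6 bridges it to U5, and Prpf8 lies at the catalytic centre. Of these 5 members, 3 lay below the all-gene median and 2 above it, with log2 fold changes from −2.62 to 0.74.

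Prpf3 (chr3:95830124-95855885, minus strand) had 2.38, 4.89, 15.0 and 16.4 FPKM in NP and 0.188, 1.16, 0.517 and 0 in P. The datasets did not overlap, and the P values rested on 5, 21, 13 and 0 recovered reads. Means were 9.69 ± 7.09 FPKM (SD, n = 4) for NP against 0.465 ± 0.508 (SD, n = 4) for P. The log2 fold change was −2.62 ± 0.85 (SE), with an adjusted p of 0.405 in limma. Prpf4, whose protein binds that of Prpf3, had 2.65, 2.44, 5.09 and 5.69 FPKM in NP and 9.31, 0, 0.595 and 0 in P. For Prpf4 too, 3 of the 4 P libraries were below every NP library, while P replicate 1 was above them all.

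Prpf8, the largest member by coding sequence, was the one of the highest level in the tri-snRNP. Its FPKM was 145, 102, 171 and 81.3 in NP and 204, 99.96, 252 and 317 in P. P replicate 2 lay inside the NP range and the other P libraries above it. NP libraries averaged 125 ± 40.5 FPKM (SD, n = 4) against 218 ± 91.5 (SD, n = 4) for P, and the log2 fold change was 0.74 ± 0.56 (SE), with an adjusted p of 0.644 in limma. Prpf6 and Prpf31 had log2 fold changes of −0.19 and −0.64.

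The 5 further Prpf proteins act in the assembled spliceosome. Prpf38a encodes a protein that joins as the spliceosome is activated, and Prpf38b its relative. Prpf38a had 25.8, 20.6, 27.6 and 2.41 FPKM in NP and 25.6, 103, 56.4 and 180 in P. P replicate 1 lay inside the NP range and the other P libraries above it. NP libraries averaged 19.1 ± 11.5 FPKM (SD, n = 4) and P libraries 91.2 ± 67.1 (SD, n = 4), a ratio of 4.77. The log2 fold change was 2.25 ± 0.83 (SE), with an adjusted p of 0.420 in limma, and it was 1.52 without NP replicate 4. The paper, from its DESeq2 analysis of these libraries, reports Prpf38a mRNA as enriched in polysomes. Prpf38b was near the detection limit, with 0.396, 0, 1.62 and 1.05 FPKM in NP and 0.314, 0.525, 1.09 and 2.04 in P.

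Prpf19, the ubiquitin ligase that names the complex of the activated spliceosome, had 10.3, 16.8, 6.55 and 4.27 FPKM in NP and 32.9, 1.28, 1.13 and 7.70 in P. Its NP libraries all lay inside the P range, and the log2 fold change was −0.62 ± 0.99 (SE). Prpf18, which acts at the second step of splicing, had a log2 fold change of 0.60 and the kinase Prpf4b one of −0.55.

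**Figure D4:**
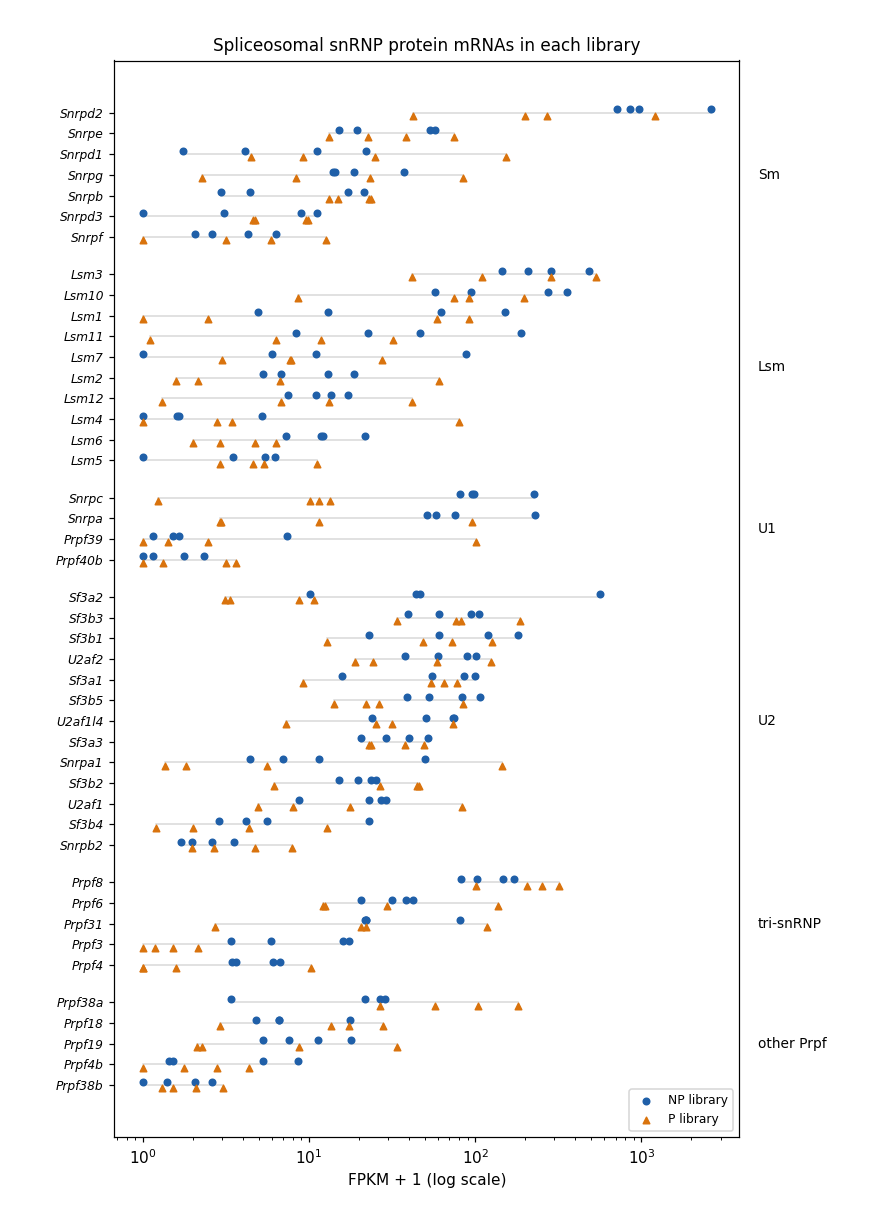
FPKM + 1 (log axis) of 44 of the 45 members in the 4 NP (blue circles) and 4 P (orange triangles) libraries, by particle and ordered by mean level within each; the grey line spans the 8 libraries. Only Snrpc, Prpf3 and Lsm6 have all circles to the right of all triangles, and the triangles span widely for Lsm4 (0 to 78.8 FPKM), Prpf39 (0 to 99.99) and Snrpa1 (0.365 to 144).

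Most members varied more between P libraries than between NP libraries. The SD of log2(FPKM + 1) was larger in P than in NP for 34 of 45 members (75.6%), against 57.9% of all genes tested. The median SD of the members was 0.84 in NP and 1.41 in P, where all genes tested had 0.79 and 0.96. In 8 members (17.8%) a single P library held more than 75% of the P sum, against 31.2% of all genes tested, and in 4 members (8.89%) a single NP library did so for the NP sum, against 20.4%. P replicate 4 was the highest of all 8 libraries for 13 members and the lowest for 14, so it did not lie to one side of the others.

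Sequence properties that the choice of members did not use were also compared with the fold change. The coding sequences of the members had a median of 864 bases, against 1419 bases for the genes tested that had a transcript model, and Sm proteins the shortest, with a median of 357 bases. Across the 45 members, Spearman's rho of coding length with the log2 fold change was 0.10, and 0.07 across the genes tested, as a description, since genes of one library share its depth. The cytoplasmic polyadenylation element, searched as TTTTAT or TTTTAAT on the mRNA strand in the last 100 bases, was found in 12 members (26.7%) and in 18.5% of 11656 genes tested with a model. The letters of TTTTAAT can overlap AATAAA. The 12 members with the element, Prpf8 and Lsm3 of the stretches above among them, had a median log2 fold change of −0.48, and the 33 without it one of −0.49. A poly(A) signal, AATAAA or ATTAAA in the last 40 bases, was found in 33 members (73.3%) and in 74.4% of genes. Near-identical copies elsewhere in the annotation were found for 14 members, mostly of the short core proteins. For 4 of them (Sf3b4, Snrpg, Snrpd2 and Lsm7) a copy is in the table. Reads of any of the 14 could align to a copy as well, so the values of all 14 are uncertain. More than 10% of the exon bases of Snrpf, U2af1l4, Prpf31, Sf3a2 and Snrpa lie in exons of another gene, with 85.4% for Snrpf and 66.1% for U2af1l4.

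Other splicing genes, outside these family names, were read in the same fit. Of a list of 54 genes, 52 were tested, 0 were called by limma, and 6 had an unadjusted p below 0.05 (11.5%), all with the higher level in NP, where 9.47% of all genes tested did so. Their median log2 fold change was −0.31, against −0.39 for all genes tested. The list of 12 snRNP assembly genes tested, which load the Sm ring onto RNA, had a median of −0.73. The median was −1.02 for 9 proteins bound to the U2 particle, −0.47 for 12 of the Prp19 complex, −0.26 for 6 of the minor U11/U12 particle and 0.19 for 12 of U4/U6 and U5. Gemin8, of the complex that assembles the Sm ring, had 100.01, 13.0, 34.1 and 18.2 FPKM in NP and 1.54, 5.52, 0.181 and 0.601 in P, with no overlap. Its log2 fold change was −3.72 ± 0.90 (SE), with an adjusted p of 0.344 in limma. Gemin7 of the same complex had 108, 204, 52.5 and 90.9 FPKM in NP and 19.5, 40.9, 16.0 and 47.0 in P, again without overlap, with a log2 fold change of −1.83 ± 0.64 (SE). Smndc1 and Aqr were the other genes of the list without overlap, both with the higher level in NP, which makes 7.69% of the list against 5.92% of all genes tested. Snrnp70, the U1 protein outside the family names, had a log2 fold change of 0.05.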

How the data were processed

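RNA-seq was performed on 4 NP and 4 P libraries. Per the labels, reads were processed with Trim Galore 0.4.1, FastQC 0.11.5 and HISAT2 2.0.5 on GRCm38, and FPKM values were made by the authors in Seqmonk, without further scaling between libraries. No source used here names the annotation release. A table of means and ratios and a table of the authors' DESeq2 fold changes and FDR values were not used. The members and lists were chosen with earlier results of these data known.

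P and NP were compared with limma 3.58.1 (R 4.3.3; lmFit, eBayes with trend, 2-sided) on log2(FPKM + 1), which understates the change of low genes, for genes whose mean FPKM passed 0.1 for NP, P or both; p-values were adjusted after Benjamini and Hochberg over all 14292 genes, with a threshold of 0.1. Values in every library are given for the members of each group with the highest mean, the highest and the lowest log2 fold change, those without overlap and the fixed pairs, except for 1 member that is not reported here; Snrpb, Prpf4 and the Gemin genes were added after their values were seen. Replicates within a dataset are separate profiles, each of which gave an NP and a P pool, and the fit without a block does not use this. Reads, with a step tolerance of 0.01, were recovered for 88.3% of 15585 genes with a value; lengths were annotated for 7613 and searched for 6155. Amplified cDNA without molecular identifiers is not a count of molecules. Alternatives were the pseudocount, scaling, filter, replicate block, voom and leaving out each library. The fit was tested on simulated data.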

Additional observations from a re-analysis of the deposited data

Results flagged for a closer look

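Each member in each dataset was examined on the scale of log2(FPKM + 1), which gave 90 groups of 4 libraries. In 4 of them, 1 library stood apart from the other 3 by a gap that took nearly the whole range on that scale (Dixon's test at the 95% level). Chance alone would give about 4.5 such groups, 1 in 20. Snrpc, of the U1 particle, had 0.240 FPKM in P replicate 4 and 9.08 to 12.4 in the other P libraries. Sf3a1, of the U2 particle, had 8.14 FPKM in P replicate 4 and 53.1 to 76.7 in the others. Prpf31, of the tri-snRNP, had 79.8 FPKM in NP replicate 4 and 20.6 to 21.1 in the others. Prpf38a had 2.41 FPKM in NP replicate 4 and 20.6 to 27.6 in the others.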

How the results depend on the processing

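The count of 0 members called by limma was also found with a pseudocount of 0.1, both scalings, both filters, the replicate block and without each library in turn. Only limma-voom on recovered reads gave 1, Snrpc (adjusted p 0.0606). The member median of −0.49 reversed to 0.067 after quantile normalization, to 0.47 after centring each library on its median and to 0.16 as the log2 ratio of mean FPKM, and it ranged from −0.50 to −0.11 without single libraries. The all-gene median was −0.02 after quantile normalization and 0.57 after centring. The core minus particle difference ranged from −0.05 without NP replicate 3 to 0.78 with the Sm proteins alone.

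Members without overlap numbered 3, and 2 after quantile normalization, with no all-gene share given here for that scaling. After centring they numbered 7: Snrpc with NP higher (0.812% of all genes) and 6 with P higher (12.1% of all genes). Without single libraries the number was 3 to 7: it was 7 (15.6%) without P replicate 1, adding Prpf4, Sf3b5, Snrpa and Prpf38a, where 12% of all genes did not overlap, and 5 (11.1%) without P replicate 3, adding Sf3a2 and Snrpd2, where 10% of all genes did not. Among 20 named members, 14 kept their direction in all alternatives, but most were named for an extreme fold change or for no overlap. Of all 45 members, 18 changed direction on centring, which left 12 below 0 and 33 above 0. After quantile normalization the log2 fold change was 0.054 for U2af1 and 0.14 for Prpf19, and after centring it was 0.31 for Lsm3, 0.60 for U2af1, 0.31 for U2af2 and 0.34 for Prpf19. Without single libraries it ranged from −1.22 to 0.0068 for Lsm3, from −0.49 to 1.73 for Prpf39, from −1.17 to 0.19 for U2af1 and from −0.052 to 0.41 for Prpf38b. The cause of these reversals was not tested.

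The NP and P pools came from the same 4 profiles, but no source used here says that a number marks one profile in both datasets. Deviations of libraries with the same number correlated at 0.05 to 0.25, not above 0.1 in every pair, so the block was not used in the first fit, though 7 of 8 libraries correlated best with their own number. With the replicate block 0 members were called, 7 had an unadjusted p below 0.05, and the member median was −0.49. Members near an FPKM of 1, such as Prpf38b and Prpf40b, rested on few reads.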
